A study of Mus musculus with 4 samples.

Results

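The cytotoxic granule genes described here were the granzymes Gzma, Gzmb, Gzmc, Gzmd, Gzme, Gzmf, Gzmg, Gzmk and Gzmm and the perforin gene Prf1, 10 of the 31253 genes in the tables. They were chosen by symbol, and all 10 were counted in both libraries. The cells were live CD45+ leukocytes sorted from tumor-bearing hemispheres of C57Bl/6 mice at day 14 after intracranial implantation of CT2a, a mouse glioma line. Of the 8 mice, 4 were WT and 4 were CaMKK2 KO, in which the kinase gene is disrupted in every tissue of the host and not in the implanted tumor. The 4 mice of a genotype were marked with hashtag antibodies, pooled and loaded on 1 10x Genomics 3′ channel, so genotype and channel cannot be told apart. Each mouse is named here by its genotype and hashtag number.

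Granzymes are serine proteases that cytotoxic lymphocytes store in secretory granules. Perforin forms pores in the target cell membrane and lets the granzymes reach the cytosol, where granzyme B cleaves caspases and other substrates. NK cells and CD8+ T cells are the classical carriers of these granules, and granzyme B has also been described in regulatory T cells. In the mouse, granzymes C to G are close relatives encoded beside granzyme B, and they are known to be induced in strongly activated NK and T cells.

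In the GRCm38 build with GENCODE M21 annotation, Prf1 (ENSMUSG00000037202) lies on the plus strand at chr10:61297833-61304680 and Gzmm at chr10:79689020-79695261. Gzma (ENSMUSG00000023132) and Gzmk are neighbours on the minus strand at chr13:113093825-113100981 and chr13:113171608-113225908. The other 6 members lie in 1 cluster on the minus strand of chromosome 14. From the low to the high coordinate they are Gzme (chr14:56117626-56120625), Gzmd (chr14:56129556-56132608), Gzmg (chr14:56156582-56159579), Gzmf (chr14:56205263-56211417), Gzmc (chr14:56231441-56234656) and Gzmb (ENSMUSG00000015437, chr14:56258838-56262260). Gzmd and Gzme transcripts were 94.8% identical, and 6 of 410 windows of 91 bases (the read length) at the 3′ end of Gzmd were found unchanged in Gzme. Reads from these windows alone cannot tell the 2 genes apart, and how they were counted was not tested. No such window was shared between any other pair of members.

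The 200 bases before the RefSeq transcription start (GRCm38.p6) are shown for 5 members on which the results turn. Of these, Gzma, Gzmb and Prf1 were called higher in NK cells of CaMKK2 KO mice, while Gzmc and Gzmd were not called there. They are written 5′ to 3′ in the direction of transcription, and capitals mark matches on either strand to 4 motifs, namely AP-1 (TGANTCA), RUNX (TGTGGT), T-box (TCACAC) and STAT (TTCNNNGAA). No 2 matches overlapped.
Gzma, chr13:113100982-113101181, minus strand: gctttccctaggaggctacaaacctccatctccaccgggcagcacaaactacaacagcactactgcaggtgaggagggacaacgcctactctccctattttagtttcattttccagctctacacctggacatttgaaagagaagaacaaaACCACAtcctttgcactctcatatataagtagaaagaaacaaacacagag
Gzmb, chr14:56262335-56262534, minus strand: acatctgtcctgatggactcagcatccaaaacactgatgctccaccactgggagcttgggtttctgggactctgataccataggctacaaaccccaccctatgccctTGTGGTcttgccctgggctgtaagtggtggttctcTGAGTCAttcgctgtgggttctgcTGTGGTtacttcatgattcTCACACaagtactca
Prf1, chr10:61297636-61297835, plus strand: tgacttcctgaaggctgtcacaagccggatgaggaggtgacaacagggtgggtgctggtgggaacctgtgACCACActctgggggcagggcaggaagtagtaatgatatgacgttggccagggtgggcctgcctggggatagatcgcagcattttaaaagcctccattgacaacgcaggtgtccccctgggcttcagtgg
Gzmc, chr14:56234658-56234857, minus strand: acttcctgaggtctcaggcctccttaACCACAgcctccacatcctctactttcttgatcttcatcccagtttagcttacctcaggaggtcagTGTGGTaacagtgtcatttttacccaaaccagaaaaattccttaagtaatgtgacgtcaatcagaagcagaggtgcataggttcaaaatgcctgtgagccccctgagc
Gzmd, chr14:56132594-56132793, minus strand: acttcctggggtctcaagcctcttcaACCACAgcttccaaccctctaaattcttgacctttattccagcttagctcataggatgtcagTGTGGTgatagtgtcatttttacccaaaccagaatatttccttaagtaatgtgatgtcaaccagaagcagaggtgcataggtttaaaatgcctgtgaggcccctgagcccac

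The RUNX letters were found in 8 of the 11 member promoters (Gzmm has 2 listed starts), those of Prf1, Gzma and Gzmb to Gzmg, against 11.2% of 32851 promoters of this length. Gzmb alone among the members held the AP-1 letters, which 5.48% of all promoters hold. The T-box letters were found for Gzmb, Gzmk and Gzmm, against 9.85% of all promoters. The STAT letters were found only before the first start of Gzmm, against 5.49%. The promoters of Gzmc to Gzmg were 86.9% to 95.0% identical to each other and each held 2 RUNX matches in capitals, so these 5 are not independent counts. A match describes letters in this window and shows no binding.

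Hashtag doublets and negatives, cells with under 200 genes, outlying cells and cells with high doublet scores were removed. This left 5044 WT and 5622 CaMKK2 KO cells, of which 8 barcodes occurred in both libraries. Classes were set by marker gates that used no granzyme and no perforin. The NK gate (Ncr1 and Klrb1c without Cd3e) held 492 WT and 743 CaMKK2 KO cells, and the CD8+ T-cell gate held 355 and 285. T cells with 2 or more UMIs of Ncr1 and Klrb1c together were taken first, as T cells with NK receptors. This class held 58 WT and 79 CaMKK2 KO cells, which were kept out of the CD8+ gate and the other T-cell gates. Regulatory T cells (Foxp3) numbered 99 and 143, and conventional CD4+ T cells numbered 37 and 210, with none in WT mouse 1. WT mouse 1 also gave only 11 CD8+ T cells and 6 regulatory T cells. Among unused markers, Eomes was at 237 CPM (UMI counts scaled to a common total per class, defined below) in NK cells and 14.3 in CD8+ T cells, Trac at 15.5 and 910, and Ikzf2 at 1874 in regulatory T cells against 476 in conventional CD4+ T cells. The regulatory markers Ikzf2, Il2ra and Ctla4 were also counted in the conventional CD4+ gate. They summed there to 1868 to 2739 CPM (WT) and 610 to 2014 CPM (CaMKK2 KO). In regulatory T cells the sums were 4460 to 5210 and 3658 to 4056 CPM. The median UMIs per cell were 8148 (WT) and 6404 (CaMKK2 KO) in NK cells and 10600 and 11680 in CD8+ T cells. Camkk2 itself, over all kept cells, was at 27.7, 29.0, 37.9 and 28.1 CPM in WT mice 1 to 4 and at 14.8, 18.3, 13.2 and 22.7 CPM in CaMKK2 KO mice. The groups did not overlap, but Camkk2 UMIs were still counted in the CaMKK2 KO library, and which exons the allele lacks is not given in the sources used here.

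All levels below are CPM, a gene's UMIs scaled to the total UMIs of that class in a mouse. These are 3′ counts, at most 1 per transcript copied, and are not divided by gene length. Cells of a mouse are not replicates, so all tests compare mice.

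NK cells carried most of the granule transcripts. Gzma averaged 7187 ± 4142 CPM (SD, n = 8 mice) in NK cells, Gzmc 4861 ± 1632, Gzmb 2938 ± 1852 and Prf1 1085 ± 427. For Gzma and Prf1, NK cells exceeded the next class, T cells with NK receptors, in 8 of 8 mice. For Gzmb the order was flatter: NK cells, T cells with NK receptors (2314 ± 2520 CPM), CD8+ T cells (2184 ± 2006), regulatory T cells (1785 ± 969), other T cells (1415 ± 716) and conventional CD4+ T cells (961 ± 672, n = 7). The neighbours in that order changed places between mice, with CD8+ above regulatory T cells in only 4 of 8 mice. All 7 mice with conventional CD4+ T cells had more Gzmb there than in B cells (25.4 ± 16.1 CPM). Basophils, 9 WT and 4 CaMKK2 KO cells, numbered under 5 in every mouse and have no class mean. Their Gzmb was at 0, 2151 and 988 CPM in WT mice 2 to 4 and at 106, 300 and 2410 CPM in CaMKK2 KO mice 2 to 4. The 2410 CPM came from 26 UMIs in 1 cell.

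The remaining members had other leaders. Gzmf was highest in T cells with NK receptors (1874 ± 2732 CPM), then in CD8+ T cells (722 ± 728) and NK cells (475 ± 484), and each step was in the stated direction in 5 of 8 mice. Gzmk, a granzyme of memory-type T cells, was highest in CD8+ T cells at 62.0 ± 33.2 CPM and next in conventional CD4+ T cells at 52.1 ± 67.6 CPM. These spreads are between mice, and the comparison within mice is given below. Gzmm stayed under 10 CPM in every class mean, with 85 UMIs in the lymphocyte sums. Gzmg and Gzmm had no UMI in the 242 regulatory T cells, which allows a level of up to 1.53 CPM by counting error alone.

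**Figure D1:**
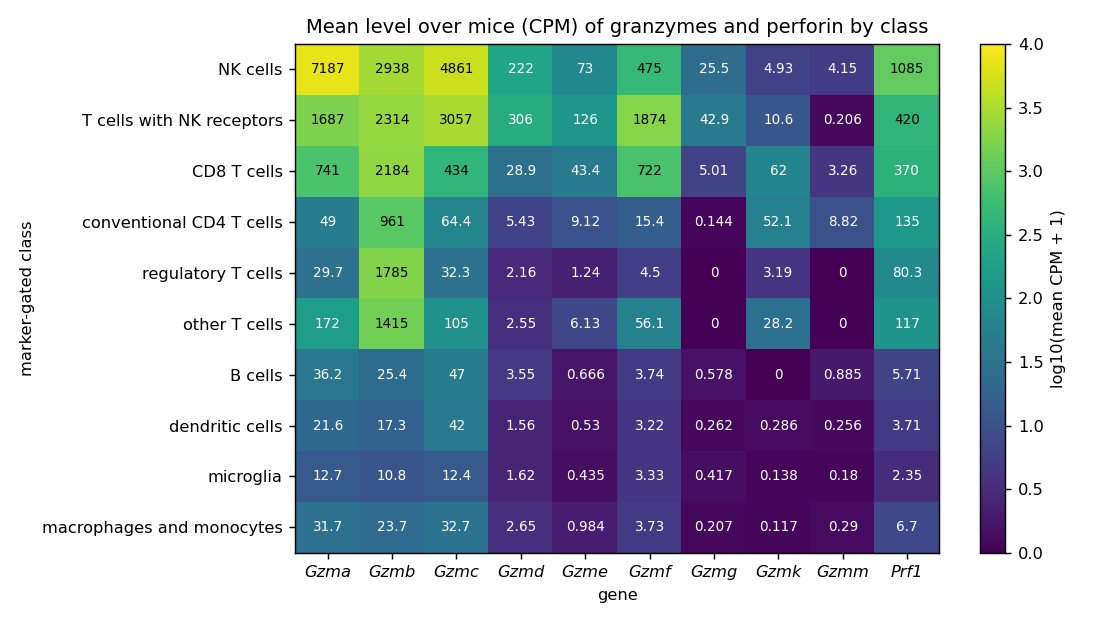
Mean level over mice in CPM of each of the 10 genes (columns) in each marker-gated class (rows), with colour on a log scale and the mean printed in each field. Gzma, Gzmc, Gzmb and Prf1 lead in NK cells, and Gzmb is also at 1785 CPM in regulatory and 961 CPM in conventional CD4+ T cells. The B cell row and the myeloid rows with a class mean lie under 50 CPM. Basophils, with under 5 cells in every mouse, had no class mean.

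Droplets also pick up free RNA, so levels in cells that should lack these genes set the background. In B cells the 4 most abundant members ranged from 4.50 CPM (Prf1, WT) to 45.0 CPM (Gzmc, WT), which was 0.479% to 1.21% of the level in NK cells of the same genotype. Without thinning, 21.1%, 24.5%, 17.2% and 24.3% of B cells in CaMKK2 KO mice 1 to 4 had a Gzma UMI, against 10.7%, 5.81%, 15.8% and 14.3% in WT mice 1 to 4, at median depths of 4990 and 3561 UMIs. In microglia, at median depths of 16250 (WT) and 16870 (CaMKK2 KO) UMIs, Gzma averaged 4.50 and 20.9 CPM. Gzmb averaged 5.37 and 16.2 CPM there, Prf1 1.41 and 3.29 CPM and Gzmc 15.4 and 9.42 CPM. The values of these 4 members did not overlap between genotypes, and those of Gzmd, Gzme, Gzmf, Gzmg, Gzmk and Gzmm did. The share of all genes without overlap is not given here. In these cells Gzma, Gzmb and Prf1 were thus higher in the CaMKK2 KO library and Gzmc was lower, where genotype and channel cannot be told apart. In B cells thinned to 3000 UMIs the Gzma shares overlapped, at 0% to 12.1% (WT) and 7.14% to 17.8% (CaMKK2 KO). With each cell thinned to 3000 UMIs, 0 of 325 B cells had 3 or more UMIs of Gzma, Gzmb, Gzmc or Prf1, which allows a share of up to 0.923%. Gzma averaged 29.7 ± 31.5 CPM in regulatory T cells (up to 99.4) and 49.0 ± 18.6 CPM in conventional CD4+ T cells (up to 76.5), against 36.2 ± 10.2 CPM in B cells (up to 51.4). Gzmc averaged 32.3 ± 27.3 CPM and 64.4 ± 86.0 CPM in the same classes, against 47.0 ± 21.4 CPM in B cells, and only CaMKK2 KO mouse 2, at 259 CPM in conventional CD4+ T cells, and WT mouse 1, at 95.2 CPM in regulatory T cells, lay above the B cell maximum of 94.3 CPM. The part of free RNA in these levels was not tested.

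NK cells and CD8+ T cells of the same mice were compared with the mouse as a block, using edgeR's quasi-likelihood test on UMIs summed per mouse with p-values adjusted over all 9040 genes tested. T cells with NK receptors, which averaged 1687 ± 3434 CPM of Gzma and 3057 ± 2581 CPM of Gzmc (n = 8 mice), were in neither class. Of the 9 members tested, 7 were higher in NK cells and 1 was higher in CD8+ T cells. Over all genes, 16.3% were called higher and 14% lower in NK cells. Gzma was 27.6-fold higher (log2 4.79, SE 0.46, adjusted p = 5.46e-08) and Gzmc 18.8-fold higher (log2 4.23, SE 0.33, adjusted p = 2.69e-09). Gzmd, Gzmg and Gzme differed by 3.57, 2.71 and 2.47 on the log2 scale, and the call of Gzmg was lost with stricter gates (adjusted p = 0.447). Prf1 was 3.00-fold higher (log2 1.58, SE 0.10, adjusted p = 5.78e-11).

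Gzmb, which had the highest mean of the members in CD8+ T cells over 8 mice, differed by 1.64-fold (log2 0.71, SE 0.12, adjusted p = 1.14e-04), and without the mouse block its adjusted p was 0.552. In CD8+ T cells of WT mice alone, Gzmf had the higher mean, at 1062 ± 930 CPM against 771 ± 253 CPM for Gzmb. The highest Gzmf value, 2314 CPM, was that of WT mouse 1, where 9.09% of only 11 cells had a Gzmf UMI. With all WT CD8+ T cells added up the order was reversed, with Gzmb at 858 CPM and Gzmf at 639 CPM. Gzmk was the 1 member lower in NK cells (log2 -3.67, SE 0.22, adjusted p = 3.59e-11). For Gzmf the estimate was -0.82 (SE 0.44, adjusted p = 0.174), which did not pass, while without CaMKK2 KO mouse 2 it was -1.13 with an adjusted p of 0.0346.

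CD8+ T cells were called higher than conventional CD4+ T cells for 6 of the 7 tested members, over the 7 mice that had both. Here 6.22% of 7526 genes were called higher and 12.4% lower. Gzmf was 23.1-fold higher (log2 4.53, SE 0.28, adjusted p = 1.19e-13), Gzma 13.0-fold (log2 3.70, SE 0.47) and Gzmc 5.99-fold (log2 2.58, SE 0.21). Prf1 was 2.67-fold higher (log2 1.41, SE 0.30, adjusted p = 8.82e-04), Gzmb 2.34-fold (log2 1.23, SE 0.38, adjusted p = 0.0205) and Gzmk 2.30-fold (log2 1.20, SE 0.39, adjusted p = 0.0293). Gzmb averaged 771 CPM in CD8+ (n = 4) and 1335 CPM in conventional CD4+ T cells (n = 3) of WT mice. In CaMKK2 KO mice (n = 4) these means were 3598 and 680 CPM. Gzmk averaged 47.6 and 97.2 CPM in WT mice and 76.4 and 18.25 CPM in CaMKK2 KO mice. In WT mice 2 and 3 and CaMKK2 KO mouse 3, Gzmb was higher in the conventional CD4+ T cells. The calls of Gzmb and Gzmk were lost under DESeq2 (adjusted p = 0.124 and 0.172). The call of Gzmb was also lost without WT mouse 4 (0.051) or CaMKK2 KO mouse 1 (0.159), 2 (0.114) or 4 (0.127). That of Gzmk was lost without WT mouse 3 (0.0596), without CaMKK2 KO mouse 1 (0.0922), 2 (0.344), 3 (0.14) or 4 (0.0953), and without the mouse block (0.12). With TMM scaling the split over all genes was 710 higher and 587 lower, against 468 and 936 by total UMIs.

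Regulatory T cells differed from the other CD4+ T cells in Gzmb, which was 2.40-fold higher there (log2 1.26, SE 0.21, adjusted p = 1.82e-04). Every mouse with both classes had more Gzmb in regulatory T cells, but in WT mice 2 and 3 the values were nearly equal. In WT mouse 2 they were 2153 and 2107 CPM. The WT means were 1264 CPM (n = 4) in regulatory and 1335 CPM (n = 3) in conventional CD4+ T cells. In CaMKK2 KO mice (n = 4) the means were 2306 and 680 CPM. Gzmb made up 90.1 ± 8.8% (WT) and 90.5 ± 3.8% (CaMKK2 KO) of the member UMIs of regulatory T cells, with 4 mice each. Prf1 did not differ by this test (log2 -0.57, SE 0.24, adjusted p = 0.179). Gzmc was lower in regulatory T cells (log2 -1.46, adjusted p = 0.00516, and 0.0911 under DESeq2), at levels near those of B cells. Of 5243 genes, 4.86% were called higher and 3.3% lower.

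Gzma, Gzmb and Prf1 were all higher in NK cells of CaMKK2 KO mice, 3 of the 8 members tested, and none was called lower. Over the 8012 genes tested, 2.02% were called higher and 1.02% lower. The median log2 difference of the 8 members was -0.05, against 0.07 over all genes.

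Gzma, a tryptase-like granzyme, was at 2665, 4417, 5264 and 3404 CPM in NK cells of WT mice 1 to 4 and at 9810, 12980, 6083 and 12880 CPM in those of CaMKK2 KO mice 1 to 4. Every CaMKK2 KO mouse lay above every WT mouse, with CaMKK2 KO mouse 3 closest to the WT range. The fitted difference was 2.65-fold (log2 1.41, SE 0.23, adjusted p = 0.00236).

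Gzmb was at 969, 2254, 1950 and 1274 CPM in WT NK cells and at 3411, 5948, 2271 and 5428 CPM in CaMKK2 KO NK cells. WT mouse 2 and CaMKK2 KO mouse 3 nearly met, and the other mice were well apart. The difference was 2.64-fold (log2 1.40, SE 0.28, adjusted p = 0.0132). Without WT mouse 4 the estimate was 1.30 and its adjusted p was 0.0676.

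Prf1 was at 704, 831, 731 and 722 CPM in WT NK cells and at 1265, 1873, 1068 and 1482 CPM in CaMKK2 KO NK cells. The WT mice were close together and all CaMKK2 KO mice lay above them. The difference was 1.90-fold (log2 0.93, SE 0.15, adjusted p = 0.00198). The calls of Gzma and Prf1 held in 17 of 17 settings tried, that of Gzmb in 16. Here and below the settings include edgeR without a filter on low counts, which gave far smaller p-values for the members than the main fit.

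Gzmc ran the other way in level. It was at 5855, 6243, 5196 and 6794 CPM in WT NK cells and at 3896, 4778, 4561 and 1564 CPM in CaMKK2 KO NK cells. All CaMKK2 KO mice lay below all WT mice, but the fit did not call it (log2 -0.70, SE 0.24, adjusted p = 0.139). It was called in 3 of 17 settings, among them with outlying cells kept (adjusted p = 0.0219) and without CaMKK2 KO mouse 3 (adjusted p = 0.0483).

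The cluster neighbours Gzmd to Gzmg varied too much between mice to be compared. Gzmf was at 1475, 283, 189 and 569 CPM in WT NK cells and at 10.3, 534, 736 and 3.26 CPM in CaMKK2 KO NK cells. Gzmd was at 495, 148, 186 and 70.6 CPM against 196, 575, 99.2 and 6.52 CPM. In both genes the genotypes overlapped, and the log2 differences were -0.90 (SE 0.85) for Gzmf and 0.04 (SE 0.66) for Gzmd, the latter with a sign that changed with the setting. Gzmk and Gzmm had too few UMIs in NK cells to be tested.

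**Figure D2:**
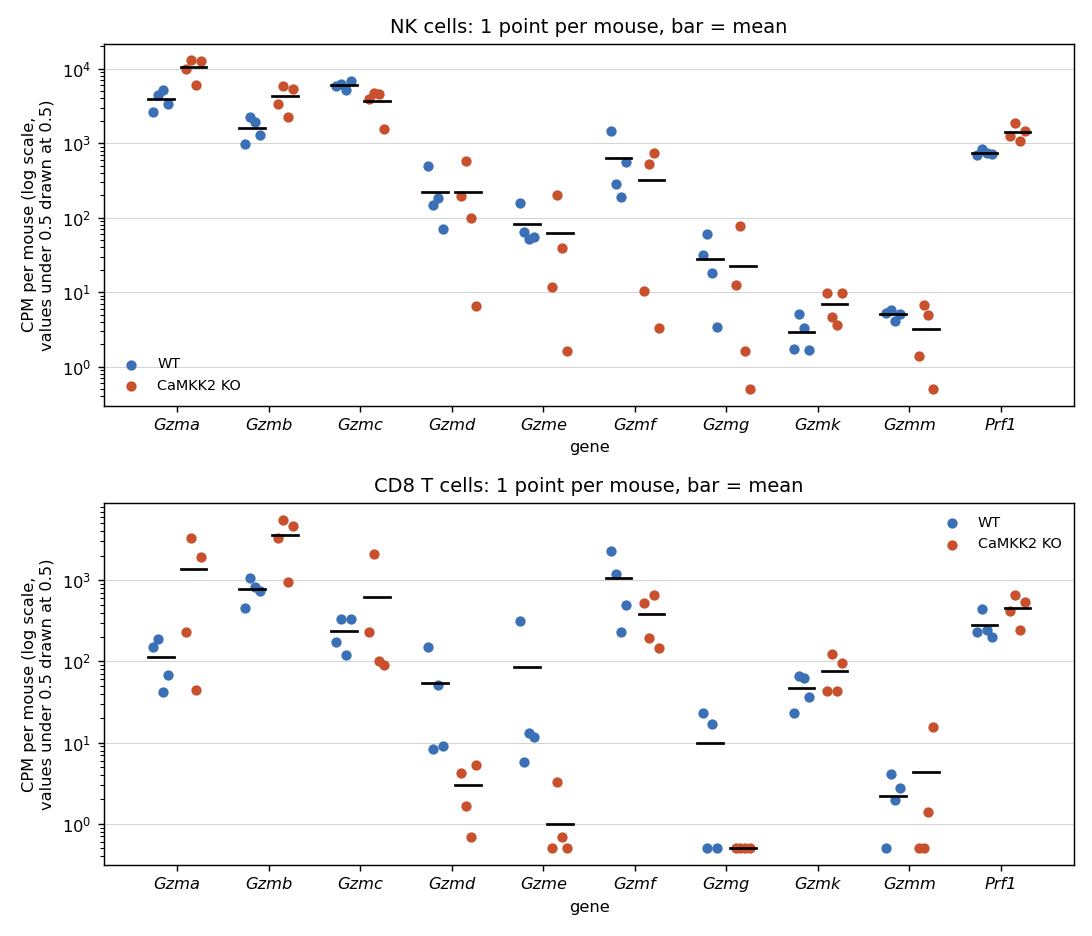
CPM per mouse (log axis) of the 10 genes in NK cells and CD8+ T cells, with 1 point per mouse, WT and CaMKK2 KO side by side, a bar at the mean of 4 mice and values under 0.5 drawn at 0.5. In NK cells the CaMKK2 KO points of Gzma, Gzmb and Prf1 lie above all WT points and those of Gzmc below them, while in CD8+ T cells CaMKK2 KO mouse 3 lies within the WT range for Gzmb at 945 CPM.

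Markers of other cells were also counted in the NK gate. The B cell markers Pax5 and Cd22 were at 0 in 7 of 8 mice, Lyz2 and Mertk summed to 73.6 to 101 CPM (WT) and 75.0 to 109 CPM (CaMKK2 KO), and the 4 T cell markers summed to 430 to 572 and 521 to 562 CPM, most of it Lck and Trbc2. Mertk was at 0 in 4 of 8 mice. None of the 4 T cell markers was at 0 in any mouse, and their part in the result was not tested.

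The make-up of the granule transcripts was compared next. Of the member UMIs in NK cells, Gzmc took 45.5 ± 6.1% (WT) and 19.2 ± 9.6% (CaMKK2 KO, n = 4 each), and the ranges of 38.2% to 52.7% and 7.32% to 30.7% did not overlap. Gzma took 29.4 ± 7.3% and 50.5 ± 8.1%. Prf1 took 5.62 ± 0.18% (5.38% to 5.80%) in WT and 6.96 ± 0.16% (6.79% to 7.18%) in CaMKK2 KO mice, also without overlap. The 10 genes together averaged 13290 ± 846 CPM in NK cells of WT and 20460 ± 5094 CPM in those of CaMKK2 KO mice, and the lowest CaMKK2 KO mouse was at 14870 CPM against 14310 CPM for the highest WT mouse. These shares were described and not tested.

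**Figure D3:**
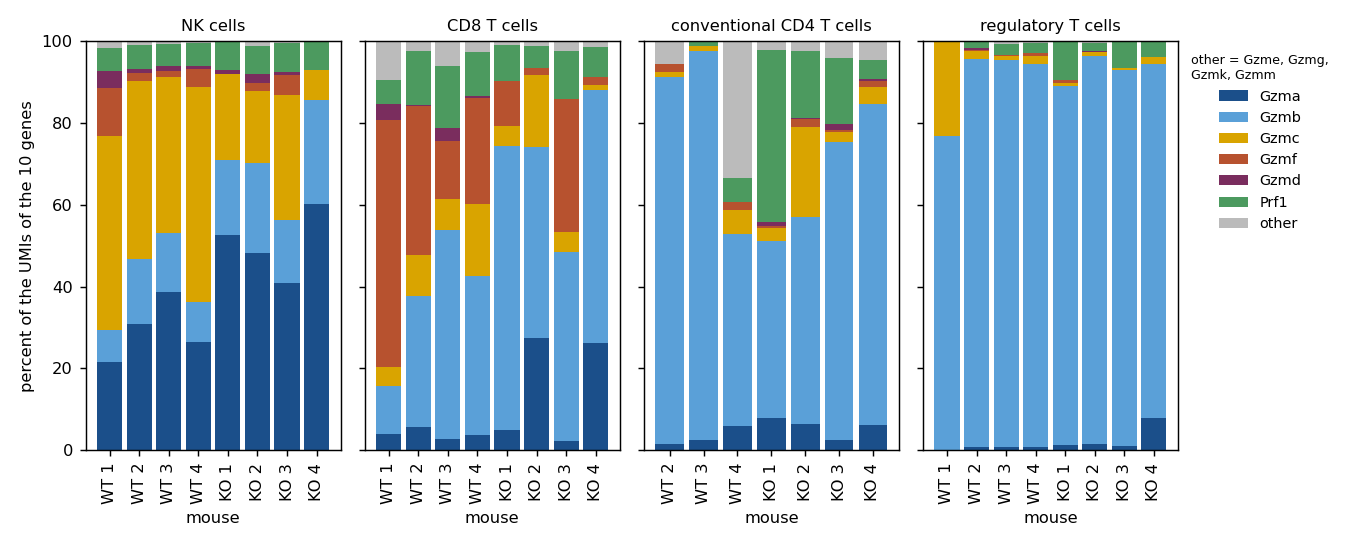
Percent of the UMIs of the 10 genes that each gene took, as 1 stacked bar per mouse, in NK cells and in CD8+, conventional CD4+ and regulatory T cells (KO for CaMKK2 KO, with Gzme, Gzmg, Gzmk and Gzmm joined as other). Gzmc takes 38.2% to 52.7% in WT NK cells and 7.32% to 30.7% in CaMKK2 KO NK cells. Gzmf takes 14.4% to 60.4% in CD8+ T cells of WT mice, and Gzmb fills most of each bar in regulatory T cells.

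Shares of cells pointed the same way but passed no threshold. In cells thinned to 3000 UMIs, a Gzma UMI was found in 80.0 ± 5.7% of WT and 93.3 ± 5.0% of CaMKK2 KO NK cells (n = 4 each). For Gzmb the shares were 73.1 ± 9.0% and 90.2 ± 5.6% (exact permutation test over mice, two-sided, p = 0.0286, adjusted p = 0.19 over 40 tests). For Prf1 they were 66.8 ± 11.3% and 84.6 ± 6.5% and for Gzmc 42.8 ± 6.0% and 33.6 ± 13.5%. Without thinning the shares were 85.2% and 96.7% for Gzma and 87.3% and 94.8% for Gzmb. The smallest p that 4 against 4 mice can give is 0.0286, so an adjusted p under 0.05 over 40 tests needs many tests at that value. None of the 40 tests had one, and the shares are left as a description.

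In CD8+ T cells, Gzmb and Gzma were called higher in CaMKK2 KO mice, 2 of 7 members tested, and none lower. Of 6841 genes, 0.775% were called higher and 0.702% lower (53 and 48 genes, against 44 and 71 with TMM scaling). Gzmb was at 451, 1063, 827 and 742 CPM in WT mice 1 to 4 and at 3291, 5569, 945 and 4588 CPM in CaMKK2 KO mice 1 to 4. CaMKK2 KO mice 1, 2 and 4 were far above the WT mice, and CaMKK2 KO mouse 3 lay inside their range. The difference was 4.49-fold (log2 2.17, SE 0.35, adjusted p = 0.00336). It held in 16 of 17 settings. It was lost with limma, where every cell had equal weight and the test also differed (adjusted p = 0.216).

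Gzma in CD8+ T cells rested on few cells. It was at 150, 187, 42.4 and 67.7 CPM in WT mice and at 228, 3267, 44.5 and 1945 CPM in CaMKK2 KO mice. Only CaMKK2 KO mice 2 and 4 stood out, and CaMKK2 KO mouse 3 was at the level of CaMKK2 KO B cells (44.7 CPM). In those 2 mice the 3 cells richest in Gzma held 58.8% of 1984 UMIs and 81.8% of 738 UMIs. The fit gave 13.3-fold (log2 3.73, SE 0.88, adjusted p = 0.0396). The call held in 7 of 17 settings, and leaving out WT mouse 1, 2, 3 or 4 or CaMKK2 KO mouse 2 or 4 gave an adjusted p of 0.0735, 0.0516, 0.119, 0.149, 0.141 and 0.102. The estimate without CaMKK2 KO mouse 2 was 2.78.

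Prf1 was at 231, 437, 245 and 203 CPM in WT CD8+ T cells and at 413, 655, 243 and 532 CPM in CaMKK2 KO CD8+ T cells. The groups overlapped and the difference was not called (log2 0.67, SE 0.26, adjusted p = 0.22). Gzmf was at 2314, 1205, 232 and 496 CPM in WT and at 521, 193, 666 and 148 CPM in CaMKK2 KO mice, with a wide overlap (log2 -1.28, SE 0.52, adjusted p = 0.232).

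Gzmc was at 174, 330, 119 and 337 CPM in WT and at 231, 2088, 101 and 89.6 CPM in CaMKK2 KO CD8+ T cells. CaMKK2 KO mouse 2 alone carried its positive estimate (log2 1.31, SE 0.71, adjusted p = 0.4), which was -0.77 without that mouse. Gzmd was at 150, 8.27, 51.6 and 9.08 CPM in WT and at 4.28, 1.65, 0.69 and 5.27 CPM in CaMKK2 KO mice. The ranges did not overlap, the adjusted p was 0.0502, and 1 cell of WT mouse 3 held 76 of the 79 UMIs of that mouse. Gzmd was called in 6 of 14 settings, among them TMM scaling (adjusted p = 0.0398). It was at 5.36 CPM in the B cells of all CaMKK2 KO mice together, and none of the 4 CaMKK2 KO values in CD8+ T cells was above that. Gzmk gave 0.33 (SE 0.31, adjusted p = 0.672).

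The NK markers Klra8, Klra4, Klrk1 and Eomes summed to 390 to 477 CPM in CD8+ T cells of WT mice and to 420 to 553 CPM in those of CaMKK2 KO mice. Most of this was Klrk1, which CD8+ T cells also express. Klra8 and Klra4 averaged 1.24 and 0.618 CPM there, against 265 and 306 CPM in NK cells. T cells with 2 or more UMIs of Ncr1 and Klrb1c had been kept out of the CD8+ gate. The part of free RNA and of single cells in the CD8+ Gzma values was not tested beyond the counts given here.

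Shares of CD8+ T cells showed the same order. A Gzmb UMI was found in 57.0 ± 6.6% of thinned WT cells and 78.6 ± 9.7% of thinned CaMKK2 KO cells (n = 4 each, exact permutation test, p = 0.0286, adjusted p = 0.19). For Gzma the shares were 6.63 ± 1.90% and 25.0 ± 20.1%, with 55.0% in CaMKK2 KO mouse 2 and 12.1% to 17.7% in the other 3. In thinned B cells of CaMKK2 KO mice 1 to 4 the Gzma share was 16.2%, 11.3%, 7.14% and 17.8%, at 35.4 to 51.4 CPM. With 3 or more UMIs required, Gzmb was found in 27.0 ± 7.2% and 62.7 ± 17.9% of CD8+ T cells.

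In regulatory T cells, Prf1 was called higher in CaMKK2 KO mice and Gzmb was not, of 2 members tested. The background was 0.353% of 3115 genes called higher and 0.482% lower. Prf1 was at 0, 34.7, 47.6 and 23.5 CPM in WT mice and at 230, 68.8, 188 and 49.7 CPM in CaMKK2 KO mice, which rests on 0, 9, 10 and 6 UMIs against 64, 12, 122 and 5 UMIs. The groups nearly touched, and 4 of 242 cells held 50% of all Prf1 UMIs. The fitted log2 difference was 2.22 (SE 0.44, adjusted p = 0.0172), and it held in 11 of 17 settings. It was lost with limma (adjusted p = 0.643), with stricter gates (0.0807), and without WT mouse 2 (0.0728), WT mouse 4 (0.127), CaMKK2 KO mouse 1 (0.123) or CaMKK2 KO mouse 3 (0.113). The markers Ikzf2, Il2ra and Ctla4 summed to 4662, 4460, 4482 and 5210 CPM in regulatory T cells of WT mice 1 to 4 and to 3798, 4056, 3794 and 3658 CPM in those of CaMKK2 KO mice 1 to 4, without overlap and with none of the 3 at 0. Their part in the Prf1 result was not tested.

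Gzmb in regulatory T cells was at 317, 2153, 1646 and 941 CPM in WT mice and at 2161, 3230, 2718 and 1113 CPM in CaMKK2 KO mice. The genotypes overlapped (log2 0.75, SE 0.32, adjusted p = 0.363), and the 317 CPM of WT mouse 1 came from 10 UMIs in 6 cells.

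In conventional CD4+ T cells none of the 4 members tested was called between 3 WT and 4 CaMKK2 KO mice, while 0.475% of 3161 genes were called higher and 0.285% lower. The unadjusted edgeR p was 0.0414 for Gzmb, 0.00393 for Prf1, 0.231 for Gzma and 0.139 for Gzmc, before adjustment over all genes. DESeq2 called Prf1 (log2 3.45, adjusted p = 0.0239), and so did edgeR without CaMKK2 KO mouse 4 (adjusted p = 0.0176). Prf1 was at 0, 20.1 and 38.5 CPM in WT mice 2 to 4, from 4 UMIs in all, and at 415, 193, 246 and 34.3 CPM in CaMKK2 KO mice (log2 3.37, SE 1.00, adjusted p = 0.159). Gzmb ran lower, at 2107, 1591 and 308 CPM against 430, 598, 1104 and 586 CPM (log2 -0.94, SE 0.42, adjusted p = 0.331). The WT values rest on 10 to 15 cells a mouse. Ikzf2, Il2ra and Ctla4, markers of regulatory T cells, summed there to 1868, 2739 and 2132 CPM in WT mice 2 to 4 and to 1311, 610, 2014 and 1446 CPM in CaMKK2 KO mice 1 to 4, none was at 0, and their part in the Gzmb values was not tested.

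Whether the genotype difference was unequal in CD8+ T cells and NK cells was tested by the interaction of class and genotype. Of 9 members, only Gzmd was called (log2 -3.71, SE 0.62, adjusted p = 0.00622), where 0.122% of 9040 genes were called higher and 0.111% lower. It held in 10 of 13 settings and was lost without WT mouse 3 (adjusted p = 0.0893), whose single rich CD8+ cell is described above, without CaMKK2 KO mouse 2 (0.0808) and under DESeq2 (0.458). For Gzmb the interaction was 0.64 (SE 0.19, adjusted p = 0.17) and for Gzma 1.41 (SE 0.76, adjusted p = 0.559), so a larger difference in CD8+ T cells was not shown. Without CaMKK2 KO mouse 3 the Gzmb interaction was 0.92 with an adjusted p of 6.14e-04. For Prf1 it was -0.23 (SE 0.18, adjusted p = 0.725).

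Members differed in how evenly the cells of a class shared them. Among 1235 NK cells, the 222 cells richest in Gzma held 50% of its UMIs. This took 149 cells for Prf1, 128 for Gzmb and 47 for Gzmc. For Gzmf, Gzmd, Gzme and Gzmg it took only 7, 6, 6 and 3 cells. A single cell of CaMKK2 KO mouse 3 held 1034 of the 2256 Gzmf UMIs of that mouse, and in WT mice 2 and 3 single cells held 95.9% and 95.2% of Gzmf. The levels of Gzmd to Gzmg per mouse thus reported a few very rich cells. In CD8+ T cells 67 of 640 cells held 50% of Prf1, 44 of Gzmb, 10 of Gzmf, 6 of Gzmc and 6 of Gzma, and 46 held 50% of the 468 Gzmk UMIs.

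**Figure D4:**
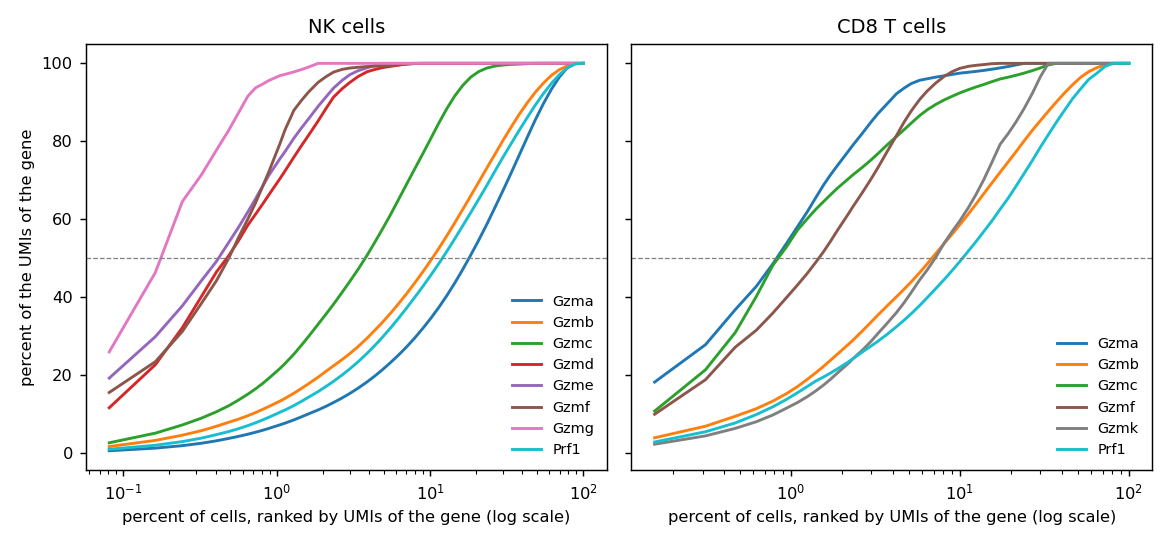
Cumulative percent of a gene's UMIs against the percent of cells, ranked from the richest cell and on a log axis, for NK cells and CD8+ T cells, with a dashed line at 50%. The Gzma, Gzmb and Prf1 curves in NK cells cross the line at more than 100 cells, Gzmc at 47 of 1235 cells, and Gzmf, Gzmd, Gzme and Gzmg within the first 7 cells.

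Within NK cells, Gzma, Gzmb and Prf1 occurred together. Counting 3 or more UMIs as detected in cells thinned to 3000 UMIs, 83.8% of the 544 cells with Prf1 also had Gzmb, against 45.8% of the cells without Prf1, and this order held in 8 of 8 mice. Gzmb was found in 69.4% of cells with Gzma and 35.2% of those without, in the same order in 7 of 7 mice with enough cells. With 1 UMI as detected, all 3 were found together in 47.5% of WT and 74.5% of CaMKK2 KO NK cells. By mouse these were 35.2%, 59.0%, 58.5% and 36.9% in WT and 78.1%, 82.3%, 60.8% and 84.2% in CaMKK2 KO, which did not overlap. The share with all 3 depends on the share of each gene, given above. Whether joint detection differed between genotypes beyond those shares was not tested. A granzyme without Prf1 was found in 30.4% of WT and 15.0% of CaMKK2 KO NK cells.

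Gzmc overlapped with the other members unequally. Of the 293 cells with 3 or more Gzmc UMIs, 60.8% also had Gzma, against 87.7% of the cells without Gzmc, and Gzma was the more frequent in cells with Gzmc in only 1 of 8 mice. Gzmb was found in 64.5% of the cells with Gzmc and 62.5% of those without, and Prf1 in 43.0% and 45.8%, each higher with Gzmc in 6 of 8 mice. With 1 UMI as detected the shares were 82.62% and 82.41% for Gzmb and 77.25% and 77.13% for Prf1, each higher with Gzmc in 4 of 8 mice. The cells with 3 or more Gzmc UMIs were also far larger in RNA, with a median of 19810 UMIs before thinning against 5892 in the others. The filter on outlying cells could also drop RNA-rich cells, and its part in these shares was not tested. At 3 or more UMIs, all 29 cells with Gzmd and 31 of the 32 cells with Gzmf were among the Gzmc cells. Gzme was found in 37.9% of the Gzmd cells and in 0.255% of the other NK cells. The part of shared reads in this last overlap was not tested.

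CD8+ T cells seldom carried the full set. Gzma, Gzmb and Prf1 were found together in 2.55% of WT and 9.51% of CaMKK2 KO CD8+ T cells, and Gzmb with Prf1 in 29.5% and 42.3%. By mouse the 3 together were in 0 of 11 cells of WT mouse 1, which allows up to 27.3%, in 3.16%, 2.22% and 2.68% in WT mice 2 to 4, and in 9.01%, 22.5%, 5.05% and 8.82% in CaMKK2 KO mice 1 to 4. CaMKK2 KO mouse 2 was far above the rest. At 1 UMI the Gzma shares in CD8+ T cells of CaMKK2 KO mice 1, 3 and 4 lay within those of CaMKK2 KO B cells (7.14% to 17.8%). The part of free RNA in these combinations was not tested. Gzmc and Gzmf went together here too. At 3 or more UMIs, 45.2% of the 31 cells with Gzmc had Gzmf, against 5.61% of those without. Gzmb was found in 62.0% of the 79 cells with Prf1 and in 39.6% of those without.

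The CD8+ cells were then divided by Havcr2 (Tim3), a gene of terminally exhausted T cells, and Tcf7 (Tcf1), a factor of precursor-exhausted and memory-like T cells. Cells with a Havcr2 UMI and no Tcf7 UMI numbered 176 WT and 161 CaMKK2 KO, and cells with Tcf7 and no Havcr2 numbered 37 and 14. Only 5 mice had at least 5 cells of both. The median depth was 12080 and 13120 UMIs in the Havcr2 cells and 8160 and 7712 in the Tcf7 cells. Gzmb, Gzmc, Gzmf and Prf1 were higher in Havcr2 than in Tcf7 cells in 5 of 5 mice, and Gzma was so in 3 of 5. Gzmd had no UMI in the Tcf7 cells of these 5 mice, which allows up to 16.8 to 79.2 CPM in a mouse, against 2.24 to 99.2 CPM in the Havcr2 cells, and is not compared.

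Gzmb averaged 2848 ± 2700 CPM in Havcr2 cells and 159 ± 82 CPM in Tcf7 cells (n = 5 mice), a mean paired difference of 3.76 ± 1.85 (SD) in log2(CPM + 1). Prf1 averaged 511 ± 219 and 44.5 ± 24.4 CPM, with a difference of 3.57 ± 0.64. Gzmf averaged 750 ± 543 CPM against 2.24 ± 5.01 CPM, where 4 of 5 mice had no UMI in the Tcf7 cells, which allows up to 25.7 to 79.2 CPM. Gzmc averaged 857 ± 1106 and 15.7 ± 15.2 CPM. The exact sign-flip permutation test over 5 pairs cannot go below p = 0.0625, which Gzmb, Gzmc, Gzmf and Prf1 reached (adjusted p = 0.125). In thinned cells Gzmb was found in 78.2% of Havcr2 and 21.9% of Tcf7 cells and Prf1 in 59.1% and 14.1%. Gzma averaged 696 ± 1252 and 397 ± 531 CPM, with a difference of 0.24 ± 3.61 (p = 0.938, exact permutation test).

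Within the Havcr2 cells, Gzmb was at 1296, 772 and 958 CPM in WT mice 2 to 4 and at 4259, 6956, 982 and 4958 CPM in CaMKK2 KO mice 1 to 4. CaMKK2 KO mouse 3 was again inside the WT range, and the exact permutation test gave p = 0.0857 (adjusted p = 0.571, n = 3 and 4 mice). WT mouse 1 had 3 such cells and was not used.

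**Figure D5:**
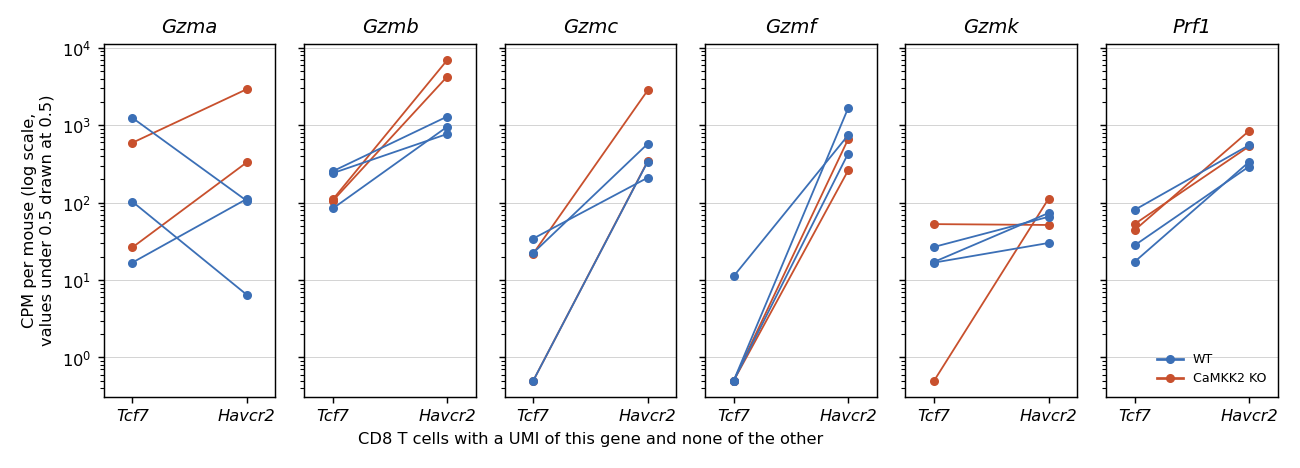
CPM per mouse on a log axis in CD8+ T cells with Tcf7 and no Havcr2 (left) and with Havcr2 and no Tcf7 (right), with 1 panel per gene and 1 line for each of the 5 mice that had both. The lines of Gzmb, Gzmc, Gzmf and Prf1 go up in 5 of 5 mice, and those of Gzma in 3 of 5.

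Other genes of the granule pathway, 47 in a list of carriers, inhibitors, secretion genes, death ligands, regulators and further granule proteases, were counted in the same fits. In NK cells 5 of the 41 tested were higher in CaMKK2 KO mice and none was lower, against 2.02% and 1.02% of all genes, and the list's median log2 difference was 0.26, against 0.07 over all genes. The 4 with the largest change were Cma1, a mast cell type chymase encoded near the granzyme cluster, Lyst, Nkg7 and Irf8. Cma1 was at 1.75, 17.3, 19.7 and 7.85 CPM in WT mice and at 53.7, 107, 11.7 and 70.1 CPM in CaMKK2 KO mice (log2 2.32, SE 0.59, adjusted p = 0.0453). CaMKK2 KO mouse 3 fell inside the WT range, as it came close to it for Gzma and Gzmb.

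Nkg7, a granule membrane protein needed for degranulation, was at 1134, 1826, 1632 and 1432 CPM in WT and at 2323, 2830, 1755 and 2773 CPM in CaMKK2 KO NK cells (log2 0.68, SE 0.16, adjusted p = 0.0328). Lyst, a regulator of lysosome-related organelles, gave 0.84 (SE 0.19, adjusted p = 0.0268), with WT mice at 29.5 to 50.8 CPM and CaMKK2 KO mice at 57.1 to 96.2 CPM. Irf8, a transcription factor, gave 0.49 (SE 0.12, adjusted p = 0.0361). The fifth was Serpinb9, which inhibits granzyme B (log2 0.48, SE 0.11, adjusted p = 0.0284).

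In CD8+ T cells 1 of 40 genes tested was called, Stat3, a signal transducer downstream of several cytokines. It was at 231, 198, 246 and 260 CPM in WT and at 155, 152, 148 and 119 CPM in CaMKK2 KO mice, without overlap (log2 -0.69, SE 0.14, adjusted p = 0.0128). Over all genes in CD8+ T cells 0.775% were called higher and 0.702% lower. None of 33 genes in conventional CD4+ T cells and none of 29 in regulatory T cells was called by edgeR at an adjusted p under 0.05. The shares of all genes called higher and lower were 0.475% and 0.285% in the former class and 0.353% and 0.482% in the latter. The genotype difference in CD8+ T cells was lower than that in NK cells for Serpinb9 (log2 -1.39, SE 0.22, adjusted p = 0.00622), Serpinb6b (log2 -1.17, SE 0.19, adjusted p = 0.00622) and Stat3 (log2 -0.92, adjusted p = 0.0138), 3 of 43 tested. Over all genes 0.122% were called higher and 0.111% lower by this interaction.

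Between classes the list split. Over CD8+ T cells, NK cells were higher for 15 of 43 genes and lower for 11, where 16.3% and 14% of all genes were called. On the log2 scale Cma1 (6.03), the T-box factor Eomes (4.06) and the inhibitors Serpinb9b (2.86) and Serpinb9 (2.25) led upward. Irf4 (-4.49), Il2ra (-2.62), Ifng (-1.52) and Serpinb6a (-1.46) led downward. CD8+ T cells were higher than conventional CD4+ T cells for 8 of 41 genes, led by Eomes (4.59-fold), the cathepsin Ctsw (3.27-fold), Runx3 (2.24-fold) and Nkg7 (2.15-fold), and lower for 15, led on the log2 scale by Lta (-1.57), Il2ra (-1.44), Stx11 (-1.39) and Serpinb6b (-1.37). Over all genes 6.22% were higher and 12.4% lower there, a split that TMM scaling turned over (710 and 587 genes).

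Regulatory over conventional CD4+ T cells gave 3 of 40 higher, Il2ra (3.99-fold), Prdm1 (1.62-fold) and Il2rb (1.35-fold), and 10 lower, led on the log2 scale by Ifng (-4.13), Lta (-2.83), Serpinb6b (-1.59) and Serpinb9 (-1.40), where 4.86% and 3.3% of all genes were called. 

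Over 44 sums per mouse of the T and NK classes, the genes whose log2(CPM + 1) followed each member most closely were ranked by Pearson's r among 8423 genes, as a description, since the sums share mice and channels. Gzma was followed by Gas7 (r = 0.83), Sh2d1b1 (0.83) and Irf8 (0.81), and Gzmc by the gate gene Klrb1c (0.89), Gas7 (0.89) and Klrb1b (0.88). Prf1 was followed by Lat2 (0.86), Impdh1 (0.81) and Chst12 (0.81). Gzmb had looser company, with Actb (0.72), Fam49b (0.71) and Ppcdc (0.64). Gzmd was followed by Gzmg (0.81), Serpinb9b (0.77) and Tmsb15a (0.75), and Gzme by Gzmg (0.75), Gzmd (0.73) and Anxa1 (0.68). Gzmf was followed by Rpl37 (0.79), Haao (0.79) and Rps26 (0.78), Gzmg by Gzmd (0.81), Gzme (0.75) and Fam184a (0.71), and Gzmk by Ms4a6d (0.71), Gng2 (0.67) and Gldc (0.65). Gzmm, with 85 UMIs, is left as a weak ordering, led by 2810004N23Rik (0.54), Kif13b (0.52) and Las1l (0.52).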

How the data were processed

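The deposited tables hold raw UMI counts per gene and cell and hashtag counts per cell. Per the labels and the submitters' processing notes, the authors used the 3′ v3.1 chemistry, bcl2fastq 2.20, Cell Ranger 4.0.0 and STAR 2.7.5c on mm10. The 2 hashtag libraries and 2 gene expression libraries were joined by barcode.

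Mice were called with HTODemux (Seurat 5.3.0, quantile 0.99). Of 6689 WT and 7271 CaMKK2 KO barcodes, hashtag doublets (667 and 508) and negatives (48 and 67) were dropped, then cells with under 200 genes (5 and 4), cells beyond 3 median absolute deviations (scuttle 1.12.0; 698 and 896) and cells with high Scrublet scores (227 and 174). The deviations were those of mitochondrial percent, genes and UMIs in both directions. Classes were gated by UMI sums of marker genes. NK cells needed 2 UMIs of Ncr1 and Klrb1c and no Cd3e, T cells 2 of Cd3d, Cd3e and Cd3g with a Cd3e UMI, CD8+ T cells 1 of Cd8a and Cd8b1, and no Cd4 or Foxp3. T cells with 2 UMIs of Ncr1 and Klrb1c were set apart before the other T-cell gates, as T cells with NK receptors.

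For each class, UMIs of a mouse's cells were added up, and genes with at least 100 UMIs were fitted with edgeR 4.0.16 (quasi-likelihood, library size as total UMIs, Benjamini-Hochberg, threshold 0.05). Class comparisons had the mouse as a block. SE is the log2 fold change over the root of F. NK sums held 613159 to 3065517 UMIs and CD8+ T-cell sums 86442 to 1531585 UMIs per mouse. Floors for a count of 0 are 3 counts, and they cover counting error only. On simulated counts 2-fold changes were recovered for 84.2% of changed genes in the NK genotype fit of 7883 genes and 89.6% in the CD8+ fit of 6677 genes. The simulation took each gene's spread from the trend over all genes. The rates may therefore not hold for members whose UMIs lie in a few rich cells. Exact permutation tests were two-sided.

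Alternatives were TMM, DESeq2 1.42.0, no filter, at least 200 UMIs, outlying cells kept, doublets kept, stricter gates, limma 3.58.1 on log2(mean CPM of cells + 1), no replicate block for classes, unthinned cells and each mouse left out. Detection at 3 UMIs and macrophages without rich cells were added after seeing the data. R 4.3.3, Python 3.11.15 and pandas 2.3.3 were used.

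The members and lists were chosen with earlier results of these data known. Named genes were all 10 members, of the pathway list the 4 with the largest called change in each direction, and the 3 genes most correlated with each member.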

Additional observations from a re-analysis of the deposited data

Results flagged for a closer look

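Of 56 sets of 4 mice examined, 10 held a value far from the other 3 of its genotype by Dixon's test. A rate of about 1 in 20 by chance would need normally distributed values and independent sets. The sets share mice, and 4 of the 10 values came from 1 class of 1 mouse, so no excess is read from this count. In NK cells these were Gzme in WT mouse 1 (159 CPM) and Gzmg in CaMKK2 KO mouse 2 (76.8 CPM). In CD8+ T cells they were Gzmc in CaMKK2 KO mouse 2 (2088 CPM) and Gzme in WT mouse 1 (312 CPM, from 27 UMIs in 11 cells). In conventional CD4+ T cells they were Gzmc in CaMKK2 KO mouse 2 (259 CPM) and Gzme in CaMKK2 KO mouse 3 (53.2 CPM).

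The other 4 were in macrophages and monocytes of CaMKK2 KO mouse 3, with Gzma at 158 CPM, Gzmb at 96.5 CPM, Gzmc at 154 CPM and Prf1 at 32.8 CPM. There 2 of 408 cells held 677 of 818 Gzma UMIs, 403 of 500 Gzmb UMIs and 715 of 800 Gzmc UMIs, and 1 cell held 140 of 170 Prf1 UMIs. Without cells of 10 or more UMIs of the gene the levels were 27.5, 18.9, 16.6 and 5.83 CPM.

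The genotype effect on Gzmd differed between CD8+ T cells and NK cells by edgeR's test of the interaction (log2 -3.71, adjusted p = 0.00622). A single cell of WT mouse 3 held 76 of its 79 Gzmd UMIs in CD8+ T cells, and its part in the result was not tested beyond leaving out that mouse (adjusted p = 0.0893).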

How the results depend on the processing

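Of 294 fits of a member under another setting, 250 kept direction and side of the threshold, 14 lost the call, 20 gained one and 10 changed sign. With a mouse left out these were 329, 22, 9 and 19 of 379. The other settings include edgeR without a filter on low counts, which gave far smaller p-values for the members than the main fit. That fit is counted in each tally of settings above. The cause of the changes and of these smaller p-values was not tested.

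Genes called between genotypes in NK cells (244 by total UMIs) numbered 624 without a filter, 130 with stricter gates, 399 with outlying cells kept, 152 with limma and 96 to 693 with a mouse left out, where 693 was without CaMKK2 KO mouse 3. With TMM they split 100 higher and 88 lower, against 162 and 82. In CD8+ T cells (101) they numbered 424 without a filter, 44 with stricter gates, 60 with doublets kept, 11 with limma and 28 to 127 with a mouse left out. In conventional CD4+ T cells (24) they numbered 49 with DESeq2, 118 without a filter, 7 with stricter gates, 49 with outlying cells kept, 12 with limma and 9 to 30 with a mouse left out. In regulatory T cells (26) they numbered 122 without a filter, 16 with stricter gates, 13 at 200 UMIs, 5 with limma and 13 to 31 with a mouse left out. Regulatory against conventional CD4+ T cells (428) gave 205 with stricter gates and 249 to 418 with a mouse left out. The interaction (21) gave 171 without a filter and 8 to 39 with a mouse left out. Without the replicate block, 2347, 1194 and 418 genes were called for NK against CD8+, CD8+ against conventional CD4+ and regulatory against conventional CD4+ T cells. The genotypes share no animals, and no paired analysis was possible because hashtag numbers pair no mice. TMM moved the median log2 difference of all genes between CD8+ and conventional CD4+ T cells from -0.12 to 0.03.

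Member estimates that changed sign were not called in either setting. In NK cells Gzmd (0.04) was -0.063 with TMM, -0.15 with DESeq2, -0.71 with outlying cells kept and -1.04 with limma, Gzme was 0.11 with stricter gates, and Gzmg and Gzmf were 0.51 and 0.019 with outlying cells kept. Gzmd in CD8+ over conventional CD4+ T cells was 0.83 without the replicate block, Prf1 in regulatory over conventional CD4+ T cells 0.42 with stricter gates, and the Gzmf interaction -0.17 with stricter gates. With a mouse left out, NK genotype estimates ran from -1.76 to 0.30 (Gzme), -1.02 to 0.78 (Gzmd) and -2.54 to 0.61 (Gzmg), CD8+ ones from -0.77 to 1.68 (Gzmc) and -0.053 to 0.57 (Gzmk), Gzmd in CD8+ over conventional CD4+ T cells from -0.84 to 0.43, and the interactions from -0.38 to 0.00015 (Prf1) and -0.85 to 1.30 (Gzmf). In conventional CD4+ T cells the share of cells with Gzmb differed by 5.54 percentage points and with Gzmc by 6.71 in unthinned cells, and with Gzmc by 0.83 at 3 UMIs, against negative differences in thinned cells. With a mouse left out the Gzmb share there ran from -9.62 to 6.11 and the Gzmc share in CD8+ T cells from -0.12 to 6.17.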
